A study of Gossypium hirsutum with 9 samples.

Results

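The UBQ polyubiquitin genes of upland cotton (Gossypium hirsutum) are the genes that carry the symbol UBQ followed by a number in the deposited expression table, 20 of its 70478 genes. Gh_D09G1418 (UBQ11) was singled out among them because it was higher in fibres of GhWRKY16 RNAi plants than in wild-type fibres. RNA was taken from the fibre of field-grown plants at 9 days post anthesis (DPA), either from plants in which RNA interference was directed against GhWRKY16, a WRKY transcription factor gene (RNAi), or from the wild type (WT). The libraries used were RNAi replicates 2 to 6 (n = 5) and WT replicates 1 to 3 (n = 3), and RNAi replicate 1 was not analysed here. The labels name neither the promoter of the construct nor the transgenic lines, nor whether replicates came from separate plants. The p-values therefore measure the spread between these libraries, which may be partly technical.

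Ubiquitin is a small protein that plant cells attach to other proteins, often as a chain that marks them for breakdown by the proteasome. A polyubiquitin gene encodes several ubiquitin units joined head to tail, which deubiquitinases cut into single ubiquitin molecules. In Arabidopsis, from which the symbols UBQ3, UBQ4, UBQ10 and UBQ11 come, such genes are widely expressed and some serve as reference genes in expression assays. The coding repeats of different polyubiquitin genes are nearly identical. How the authors counted reads that fit several copies is not given in the sources used here, so the level of each single copy is uncertain to that extent.

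Across the whole table, column sums ranged from 1200830 to 1296910 FPKM (fragments per kilobase of gene length, scaled to the mapped fragments of the library). Relative depth, estimated from the steps of low values, set against WT replicate 1, was 0.366 in RNAi replicate 4, the shallowest library, and reached 2.19 in RNAi replicate 5. Absolute read numbers are unknown, so no counting interval is given. Genes known from growing fibre (expansins, fasciclin-like proteins, cellulose synthases, tubulins and sucrose synthases) took 2.87% to 3.45% of all FPKM in RNAi and 2.75% to 3.37% in WT. Photosynthesis genes took 0.0571% to 0.0647% in RNAi and 0.0579% to 0.0673% in WT, which are overlapping ranges. No gene of the table carries the symbol WRKY16, so the silencing itself was not measured here.

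Among the 20 UBQ genes, 11 were named UBQ10, 7 UBQ11, 1 UBQ3 and 1 UBQ4. By their identifiers, 8 lie on A-subgenome chromosomes, 10 on D-subgenome chromosomes and 2 on unplaced scaffolds. Gh_Sca075369G01 (UBQ11) was listed at 0 in every library, and the other 19 passed the filter of at least 1 FPKM in at least 3 libraries. Mean levels over all libraries spanned a 598-fold range.

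The highest levels belonged to the UBQ11 genes of chromosome 6. Gh_D06G1600 (UBQ11) had 2109, 2369, 2027, 1838 and 2240.3 FPKM in RNAi replicates 2 to 6, and 2749.8, 2477 and 1858 FPKM in WT replicates 1 to 3. Its A-subgenome counterpart Gh_A06G1276 (UBQ11) had 1860.3, 1918, 2131, 2221 and 2006 FPKM in RNAi, and 2209, 1934 and 1896 FPKM in WT. The groups overlapped for both genes, and both ranked among the 56 most abundant genes of every library. Next came Gh_Sca015328G01 (UBQ11), with 849, 798, 694, 771 and 676 FPKM in RNAi and 797, 699.8 and 629.9 FPKM in WT. Gh_D10G0150 (UBQ11) had 769, 679, 643, 712 and 706 FPKM in RNAi and 615, 649.9 and 760.0 FPKM in WT. Groups overlapped here too, and these 4 genes held 80.2% ± 2.05 of the summed UBQ FPKM in RNAi (SD, n = 5) and 83.0% ± 2.93 in WT (SD, n = 3).

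Below them stood the UBQ10 genes, of intermediate level. Gh_D13G1489 (UBQ10) was the highest of these, at 294 ± 43.5 FPKM in RNAi (SD, n = 5) and 247 ± 36.0 in WT (SD, n = 3). The other 10 UBQ10 genes had RNAi means between 55.7 and 175 FPKM and WT means between 50.4 and 164 FPKM. Gh_D04G1099 (UBQ4) had 68.4 ± 25.1 FPKM in RNAi, within the range of those RNAi means, and 36.6 ± 19.2 in WT, below that of the WT means. The lowest expressed member was Gh_A04G0181 (UBQ3), with 3.04, 4.17, 5.86, 3.49 and 2.68 FPKM in RNAi and 4.19, 2.27 and 3.84 FPKM in WT. Ordered by mean level, only 2 of the 18 neighbouring steps separated genes whose ranges over the 8 libraries did not overlap. One was the step below the chromosome 6 genes and the other the step from Gh_D10G0150 (UBQ11) to Gh_D13G1489 (UBQ10), and for the other 16 steps neighbours in the order overlapped. Within libraries, Gh_D13G1489 (UBQ10) lay above Gh_D01G0586 (UBQ10), and that gene above Gh_A04G0182 (UBQ10), in 8 of 8 libraries.

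**Figure D1:**
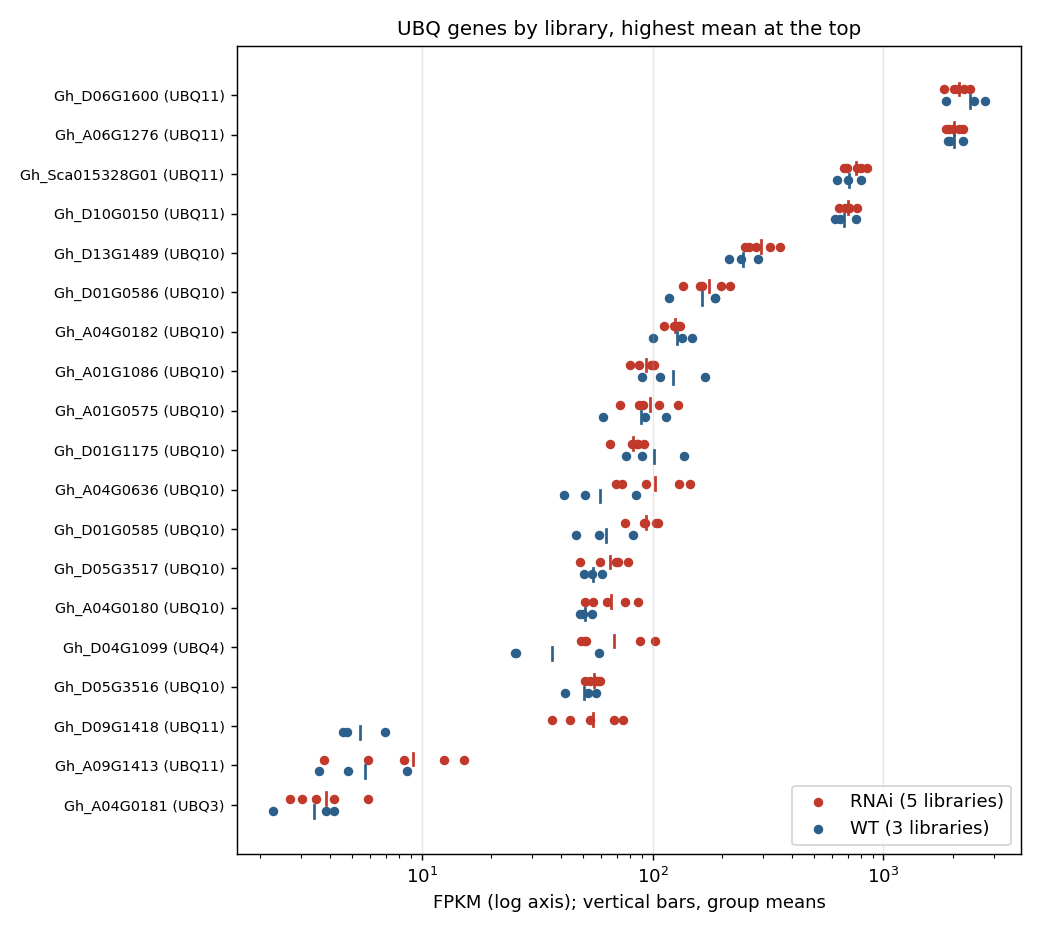
FPKM (log axis) of the 19 UBQ genes listed above 0, one point per library, with RNAi libraries in red above WT libraries in blue and a vertical bar at each group mean. The groups stand apart in Gh_D09G1418 (UBQ11), at 36.6 to 74.8 FPKM in RNAi and 4.57 to 6.92 FPKM in WT, and overlap in the other 18 genes.

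Gh_D09G1418 (UBQ11) was the member that differed most between the groups, the difference by which it was chosen, and it is described without a test. It had 53.9, 74.8, 36.6, 68.2 and 43.8 FPKM in RNAi replicates 2 to 6, and 6.92, 4.57 and 4.76 FPKM in WT replicates 1 to 3. Every RNAi library lay above every WT library, with RNAi replicate 3 highest and RNAi replicate 4 lowest among the RNAi libraries. The ratio of group means was 10.2, and the log2 fold change (RNAi minus WT, on log2(FPKM + 1)) was 3.11 ± 0.24 (SE). This was the 8th largest log2 fold change among the 34051 tested genes. Without RNAi replicate 4, the shallowest library, it was 3.24. Its rank by FPKM among all genes of a library ranged from 2598 at best to 19890 at worst. Its mean was 55.5 ± 16.1 FPKM in RNAi (SD, n = 5), just below the lowest UBQ10 mean of 55.7 FPKM, and 5.42 ± 1.31 FPKM in WT (SD, n = 3), below every other tested member except Gh_A04G0181 (UBQ3). In bulk RNA from fibres, more cells expressing a gene and more RNA per cell cannot be told apart.

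Its counterpart on the other subgenome was not called. Common neighbours flank Gh_D09G1418 (UBQ11) and Gh_A09G1413 (UBQ11): within 10 identifier numbers on either side they shared 11 named symbols, among them MBR2, P58IPK, S1FA2 and IRX9. Gh_A09G1413 (UBQ11) had 12.5, 8.41, 5.89, 15.3 and 3.77 FPKM in RNAi, and 8.62, 4.82 and 3.61 FPKM in WT. The groups overlapped, and the log2 fold change stood at 0.54 ± 0.40 (SE; adjusted p = 0.882 by limma). It moved to 0.31 without WT replicate 3, 0.34 without RNAi replicate 5 and 0.84 without WT replicate 1, and did not pass the threshold in any of these fits. The D copy made up 81.1%, 89.9%, 86.1%, 81.6% and 92.1% of the sum of the chromosome 9 genes in RNAi, and 44.5%, 48.6% and 56.9% in WT, where both copies contributed about equally.

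The log2 ratio of the D copy over the A copy was 2.72 ± 0.63 in RNAi (SD, n = 5) and 0.00076 ± 0.364 in WT (SD, n = 3) for the chromosome 9 pair, a difference given without a test. The ratio was also taken for the other 3 pairs of 1 A gene and 1 D gene on chromosomes of the same number that share neighbours. In these pairs the groups overlapped. Gh_A01G0575 (UBQ10) was not paired, since it shares 10 symbols with each of the adjacent Gh_D01G0585 and Gh_D01G0586 (both UBQ10), and no ratio was tested for it. Gh_D04G1099 (UBQ4) over Gh_A04G0636 (UBQ10) had log2 ratios of -0.59 ± 0.17 in RNAi and -0.74 ± 0.25 in WT (exact two-sided permutation test over the 56 regroupings, p = 0.321). For Gh_D06G1600 over Gh_A06G1276 the log2 ratios were 0.060 ± 0.23 in RNAi and 0.21 ± 0.21 in WT (exact permutation p = 0.393). For Gh_D01G1175 over Gh_A01G1086, both UBQ10, they were -0.18 ± 0.11 in RNAi and -0.26 ± 0.036 in WT (exact permutation p = 0.286). After Benjamini-Hochberg adjustment over these 3 pairs each exact p was 0.393. A single regrouping of the 56 is a share of 0.0179. The two-sided test doubles the smaller tail, so its smallest possible p is higher than that share.

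**Figure D2:**
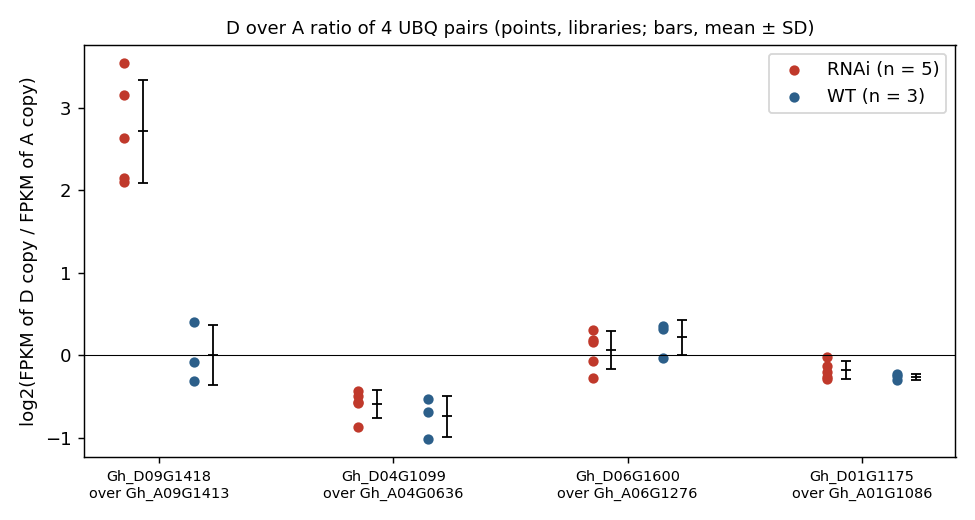
Log2 ratio of the D-subgenome copy over the A-subgenome copy for 4 UBQ pairs, one point per library (RNAi in red, WT in blue), with mean ± SD beside the points. The chromosome 9 pair sits at 2.10 to 3.54 in RNAi and -0.32 to 0.40 in WT, and the groups overlap in the other 3 pairs.

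None of the tested genes with identifier numbers next to Gh_D09G1418 (UBQ11) was called by limma, where 0.167% of all tested genes were. At that share, the absence of a call among so few genes says little about them. Identifier numbers are taken here to follow the order along the chromosome, which was not checked against a genome. Of the 20 identifiers within 10 numbers, 12 could be tested. The other 8 did not pass the filter, reached at most 1.02 FPKM in any library, and were not compared. By limma the adjusted p of the 12 tested genes ranged from 0.840 to 0.990. An unadjusted p under 0.05 was found in 2 of them, where 5.86% of all tested genes had one. The log2 fold changes of these tested neighbours lay between -0.65 and 0.26. The adjacent Gh_D09G1417 (MBR2) had 5.31, 5.55, 4.66, 5.15 and 5.55 FPKM in RNAi and 5.43, 7.004 and 5.01 FPKM in WT. On the other side Gh_D09G1419, without a symbol, had 0.548, 0.751, 1.61, 0.854 and 1.33 FPKM in RNAi and 1.28, 1.06 and 3.99 FPKM in WT.

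Gh_D09G1418 (UBQ11) also shared neighbours with a second pair, Gh_D04G1099 (UBQ4) and Gh_A04G0636 (UBQ10) of chromosome 4. The symbols JKD, LOG2, PER21, S1FA2 and creC recur within 10 identifier numbers of all 4 genes. This grouping was made after the values had been seen. Gh_D04G1099 (UBQ4) had 51.3, 103, 49.1, 88.0 and 51.2 FPKM in RNAi, and 58.8, 25.4 and 25.8 FPKM in WT. Gh_A04G0636 (UBQ10) had 94.1, 145, 73.5, 131 and 69.5 FPKM in RNAi, and 85.0, 51.2 and 41.5 FPKM in WT. In both genes RNAi replicates 3 and 5 were highest, and WT replicate 1 lay within the RNAi range. Their log2 fold changes were 0.92 ± 0.33 (SE; limma adjusted p = 0.806) and 0.78 ± 0.29 (SE; limma adjusted p = 0.825), so neither passed.

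Within each group the libraries fell in the same order for Gh_D09G1418 (UBQ11) and Gh_D04G1099 (UBQ4). In RNAi that order was replicate 3, 5, 2, 6 and 4 from high to low, and in WT it was replicate 1, 3 and 2. For Gh_A04G0636 (UBQ10) the 3 highest RNAi libraries came in the same order, and WT replicate 1 was again highest. The ratio of Gh_D09G1418 (UBQ11) to Gh_A04G0636 (UBQ10) was 0.572, 0.517, 0.498, 0.523 and 0.631 in RNAi, and 0.0815, 0.0892 and 0.115 in WT. It varied by less within each group than the level of either gene, while the groups stood apart. Within the groups, the other 3 genes of chromosomes 9 and 4 had coefficients of variation of 33.0% to 51.6% in RNAi and 38.5% to 52.4% in WT. Every other expressed member lay lower in each group, but in RNAi Gh_A04G0181 (UBQ3) came close, at 32.6%. The next in WT was Gh_A01G1086 (UBQ10), at 33.7%. Gh_D09G1418 (UBQ11) had 29.0% in RNAi and 24.1% in WT. Relative depth was 1.26, 1.83, 0.366, 2.19 and 1.11 in RNAi replicates 2 to 6, and 1, 1.76 and 1.38 in WT replicates 1 to 3. In all 4 genes the 3 highest RNAi libraries were thus the 3 deepest, while the highest WT library was the shallowest of the WT. The part that depth or any other library property plays in the order of the libraries was not tested.

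**Figure D3:**
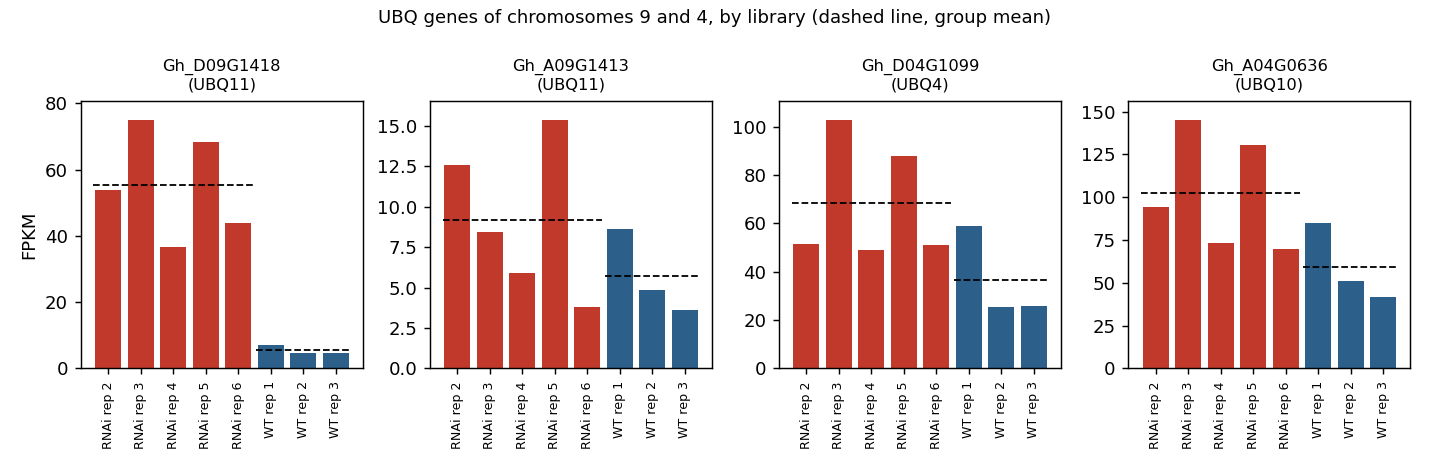
FPKM of the 4 UBQ genes of chromosomes 9 and 4 that share flanking symbols, one bar per library, with RNAi libraries in red and WT libraries in blue and a dashed line at each group mean (each panel has its own axis from 0). RNAi replicate 5 is among the 2 highest RNAi libraries in all 4 genes and WT replicate 1 is the highest WT library in all 4, and only in Gh_D09G1418 (UBQ11) do the groups not overlap.

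No UBQ gene other than the one chosen for its change was called. In the fit of all 34051 tested genes, 1 of 19 tested UBQ genes passed limma's threshold as higher in RNAi (adjusted p under 0.05), where 0.0793% of all tested genes did, and it is the gene chosen by this contrast, so nothing is read from that count. No UBQ gene was called lower, where 0.0881% of all tested genes were. The adjusted p of the other 18 ranged from 0.625 to 0.993, and 3 of them had an unadjusted p under 0.05, where 5.86% of all tested genes did. These were the chromosome 4 pair and Gh_D01G0585 (UBQ10), the member nearest to the threshold. Gh_D01G0585 (UBQ10) had 76.1, 106, 92.3, 103 and 92.3 FPKM in RNAi and 82.2, 58.8 and 46.8 FPKM in WT, with WT replicate 1 inside the RNAi range (log2 fold change 0.61 ± 0.18 SE; limma adjusted p = 0.625). The groups did not overlap in 1 UBQ gene, Gh_D09G1418 (UBQ11), as against 1.72% of all tested genes with every RNAi library above every WT library. That gene was chosen by this difference, so nothing is read from this count either. The groups overlapped in the other 18. No UBQ gene had every RNAi library below every WT library, which 2.35% of all tested genes had.

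The log2 fold change was positive in 15 of the 19 genes and negative in 4, and under each of 3 other scalings of the libraries it was positive in 16, since Gh_A04G0182 (UBQ10, -0.0072) then changed sign. The median was 0.14, or 0.13 without Gh_D09G1418 (UBQ11), beside -0.019 over all tested genes. The lowest values belonged to the chromosome 1 pair. Gh_A01G1086 (UBQ10) stood at 93.3 ± 9.29 FPKM in RNAi and 122 ± 41.1 in WT, and Gh_D01G1175 (UBQ10) at 82.4 ± 10.3 in RNAi and 101 ± 31.4 in WT (limma adjusted p = 0.864 and 0.880). In both, WT replicate 3 was the highest library of all, at 168 and 137 FPKM. The groups also overlapped in Gh_D13G1489 (UBQ10), which had a log2 fold change of 0.25 (limma adjusted p = 0.864). They overlapped too in the 6 UBQ10 genes named next, with limma adjusted p from 0.864 to 0.993. Gh_A04G0180 (UBQ10) averaged 66.3 ± 15.0 FPKM in RNAi and 50.9 ± 3.25 in WT, and its 2 lowest RNAi libraries, replicates 2 and 3, came closest to the WT libraries. Gh_D05G3517 (UBQ10) averaged 65.4 ± 11.6 FPKM in RNAi and 55.4 ± 5.02 in WT, and Gh_D05G3516 (UBQ10), next to it by identifier, 55.7 ± 3.30 in RNAi and 50.4 ± 7.77 in WT. The remaining genes differed by less than the spread between libraries. Gh_D01G0586 (UBQ10) averaged 175 ± 32.5 FPKM in RNAi and 164 ± 39.9 in WT, Gh_A04G0182 (UBQ10) 125 ± 8.12 in RNAi and 127 ± 24.8 in WT, and Gh_A01G0575 (UBQ10) 97.2 ± 21.5 in RNAi and 89.1 ± 26.7 in WT. In these 3 genes WT replicate 2 was the lowest library of all. The tandem pair Gh_D01G0585 and Gh_D01G0586, both UBQ10 and adjacent by identifier, had log2 fold changes of 0.61 and 0.11, a difference that was not tested.

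The summed FPKM of the 20 genes was nearly the same in both groups. It came to 6756, 7346, 6763, 7125 and 6966 in RNAi replicates 2 to 6, and 7679.9, 6708 and 6427 in WT replicates 1 to 3. The RNAi libraries all lay between the lowest and the highest WT library, and the ratio of group means was 1.008. The gain in Gh_D09G1418 (UBQ11) was small on this scale. It supplied 0.789% ± 0.205 of the family sum in RNAi (SD, n = 5) and 0.0774% ± 0.0114 in WT (SD, n = 3). Without it the sum averaged 6936 ± 238 FPKM in RNAi and 6933 ± 656 in WT. The chromosome 6 pair alone held 59.3% ± 1.88 of the sum in RNAi and 62.9% ± 3.95 in WT. The ratio of group means (RNAi over WT) was 0.947 for the sum of that pair and 1.11 for the sum of the other 18 genes. These ratios were not tested.

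**Figure D4:**
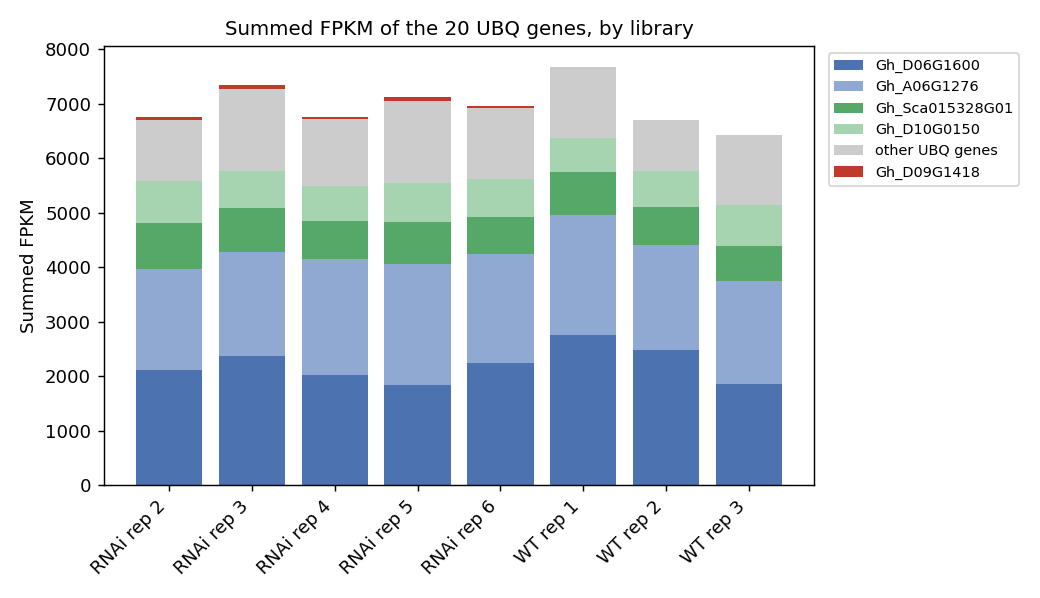
Summed FPKM of the 20 UBQ genes in each library, RNAi libraries left of WT libraries, stacked by the 4 most abundant genes, the other UBQ genes in grey and Gh_D09G1418 (UBQ11) in red at the top. The bars stand at 6756 to 7346 FPKM in RNAi and 6427 to 7679.9 in WT, and the red segment is at most 1.02% of a bar.

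Ubiquitin is also made from genes that fuse a single ubiquitin to a ribosomal protein, here the genes named UBI3 and UBICEP52-7, and RUB2 encodes a close relative of ubiquitin that modifies cullins. The 28 genes of these names and of UBI1 summed to 3072 ± 270.4 FPKM in RNAi and 3198 ± 199 in WT. Of 26 tested, none passed the threshold, which 0.167% of all tested genes did, so nothing is read from that absence. Of these 26, 11 had a positive and 15 a negative log2 fold change, where 53.6% of all tested genes were negative. An unadjusted p under 0.05 was found for 3 of them (11.5%), beside 5.86% of all tested genes. The most abundant, Gh_D10G0434 (UBI3), had 1061 ± 148 FPKM in RNAi and 1193 ± 158 in WT (limma adjusted p = 0.886), and Gh_A12G1102 (UBI3) followed at 232 ± 28.3 and 236 ± 16.8. The smallest p values belonged to neighbouring chromosome A09 genes of opposite sign. Gh_A09G1317 (UBICEP52-7) had 12.2 ± 2.42 FPKM in RNAi and 18.6 ± 4.90 in WT, and Gh_A09G1314 (UBICEP52-7) had 173 ± 12.9 in RNAi and 139 ± 24.9 in WT (limma adjusted p = 0.787 and 0.839).

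The enzymes that activate, carry, attach and remove ubiquitin were compared in the same fit. Of 758 tested genes in 9 lists, that of the other ubiquitin-coding genes included, none passed the threshold, which 0.167% of all tested genes did. At that share few calls would fall among 758 genes, so nothing is read from their absence. An unadjusted p under 0.05 was found for 36 of the 758 (4.75%, beside 5.86% of all tested genes). The log2 fold change was negative in 402 of the 758 genes, and in 53.6% of all tested genes. The sign counts given below for single lists are to be set beside that 53.6%. By list, the negative share ran from 36.8% (deubiquitinases) to 71.2% (ubiquitin-like modifiers), and these shares were not tested. List medians lay between -0.098 (ubiquitin-like modifiers) and 0.042 (activating enzymes), beside -0.019 over all tested genes.

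Upstream of the ligases, the 13 tested activating enzyme (E1) genes included Gh_A09G2265 (ECR1), a subunit of the enzyme that activates RUB proteins, at 25.0 ± 4.45 FPKM in RNAi and 26.1 ± 1.27 in WT, and Gh_D09G2064 (ECR1) at 22.8 ± 1.77 and 22.04 ± 0.610. Their smallest p values belonged to subunits of an enzyme that activates a ubiquitin-like modifier, Gh_A03G1737 (SAE2) at 2.36 ± 0.332 FPKM in RNAi and 1.68 ± 0.235 in WT, and Gh_A03G0469 (SAE1B-2) at 2.53 ± 0.200 and 3.59 ± 1.19. Conjugating enzymes (E2) carry the activated ubiquitin. Their list also took in related symbols such as SCE1, RCE1, UEV1A and COP10, so not every member is a ubiquitin carrier. Of its 115 tested genes, 39 were positive and 76 negative. Gh_A08G2339 (UBC2) had the smallest p of all 758 genes. It had 41.8 ± 1.17 FPKM in RNAi (SD, n = 5) and 63.9 ± 6.06 in WT (SD, n = 3), a log2 fold change of -0.60 ± 0.10 (SE; limma adjusted p = 0.0632). Gh_D01G0169 (UBC38) had 7.95 ± 2.55 FPKM in RNAi and 3.999 ± 0.494 in WT (limma adjusted p = 0.705). The most abundant E2 genes, Gh_A02G0023 and Gh_D02G0037 (both UBC28), averaged 648 ± 94.9 and 646 ± 84.6 FPKM in RNAi, and 631 ± 36.6 and 619 ± 38.1 in WT.

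Ligases (E3) choose the protein to be marked. Of 198 tested U-box (PUB) and RING (ATL) genes, 92 were positive and 106 negative. Gh_A08G1882 (PUB38) had 3.90 ± 0.185 FPKM in RNAi and 1.34 ± 0.757 in WT, with a log2 fold change of 1.11 ± 0.19 (SE; limma adjusted p = 0.0868). Gh_A06G1429 (ATL66) had 0.460 ± 0.322 FPKM in RNAi and 1.84 ± 0.528 in WT (limma adjusted p = 0.316). Gh_A12G0957 (ATL68) was close in FPKM to the UBQ11 genes of chromosome 6, at 1886 ± 326 FPKM in RNAi and 1784 ± 43.1 in WT, and Gh_A12G2498 (ATL48) had 677 ± 51.0 and 698 ± 127. Among 46 tested genes of the cullin-RING core, the SKP1 adaptors Gh_A02G1656 and Gh_D03G0066 (both SKP1B) had 576 ± 97.9 and 559 ± 90.8 FPKM in RNAi, and 699.9 ± 108 and 707 ± 113 in WT (limma adjusted p = 0.866 and 0.852). The SKP1-like genes Gh_A08G1177 (ASK21) and Gh_A11G3270 (ASK1) had 3.64 ± 0.493 and 97.6 ± 6.35 FPKM in RNAi, and 5.55 ± 1.64 and 125 ± 33.5 in WT (limma adjusted p = 0.825 and 0.845).

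Downstream, deubiquitinases release ubiquitin from chains and from the polyubiquitin precursor. Of 87 tested, 55 were positive and 32 negative. Gh_D07G1200 (UBP16) had 3.41 ± 1.18 FPKM in RNAi and 1.91 ± 0.509 in WT, and Gh_D09G0558 (UBP20) had 6.72 ± 0.372 and 5.17 ± 1.19 (limma adjusted p = 0.840 for both). The most abundant, Gh_D03G0669 (UCHL5) and Gh_D08G1797 (UCHL3), averaged 53.1 ± 4.72 and 52.9 ± 3.51 FPKM in RNAi, and 52.3 ± 6.75 and 51.5 ± 1.79 in WT. Of 155 tested proteasome genes, 88 were positive and 67 negative, and their summed level was 6610.4 ± 212 FPKM in RNAi and 6570.4 ± 222 in WT. Gh_A02G1643 (RPN10), a ubiquitin receptor of the proteasome, had 14.6 ± 2.49 FPKM in RNAi and 8.93 ± 1.94 in WT (limma adjusted p = 0.444). Gh_D04G1965 (RPT1A), an ATPase subunit, had 2.06 ± 0.732 FPKM in RNAi and 3.44 ± 0.745 in WT (limma adjusted p = 0.840). The core subunits Gh_A02G0747 (PBC1) and Gh_A11G0551 (PAC1) averaged 273 ± 17.9 and 217 ± 20.3 FPKM in RNAi, and 271 ± 6.005 and 211 ± 4.02 in WT.

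Shuttle and segregase proteins bring or extract marked proteins. Of 66 tested, 29 were positive and 37 negative. The pair Gh_A09G1385 and Gh_D09G1387, both CDC48, an ATPase that pulls marked proteins from complexes, averaged 48.4 ± 6.55 and 42.5 ± 7.51 FPKM in RNAi, and 36.1 ± 7.10 and 31.4 ± 5.65 in WT (limma adjusted p = 0.825 and 0.840). The most abundant, Gh_D11G3274 (CDC48) and Gh_A05G1485 (PUX3), averaged 69.8 ± 8.31 and 65.3 ± 9.68 FPKM in RNAi, and 63.2 ± 6.21 and 72.9 ± 3.14 in WT. Of 52 tested ubiquitin-like modifiers, 15 were positive and 37 negative. The autophagy modifiers Gh_A03G0094 (ATG8F) and Gh_A12G1454 (ATG8C) had 36.7 ± 2.51 and 26.0 ± 4.73 FPKM in RNAi, and 45.8 ± 3.66 and 36.6 ± 7.33 in WT (limma adjusted p = 0.741 and 0.813).

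**Figure D5:**
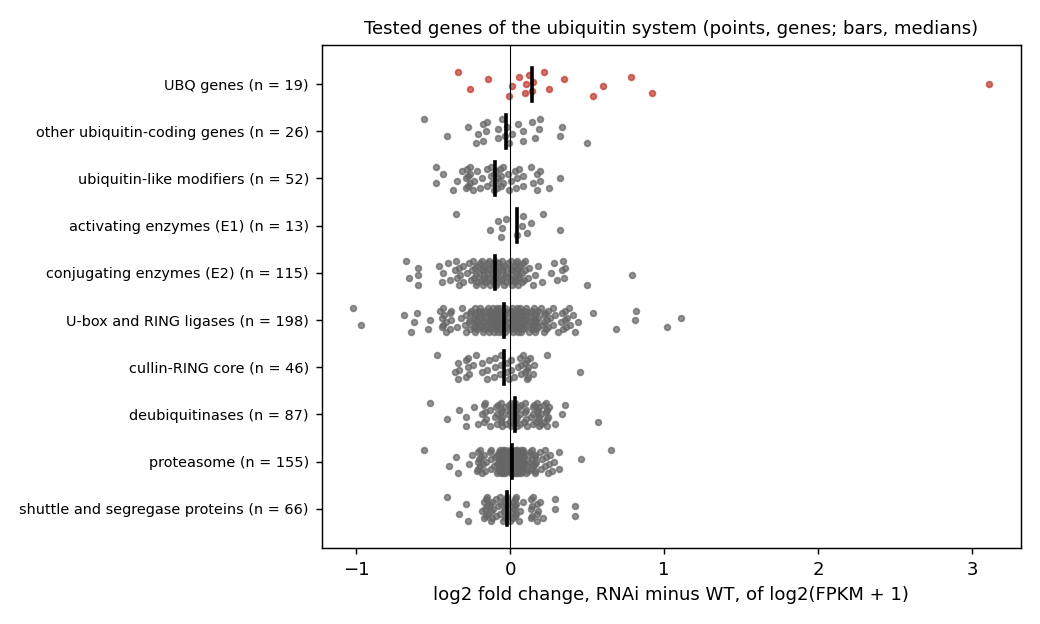
Log2 fold change (RNAi minus WT, of log2(FPKM + 1)) of each tested gene in the UBQ family (red) and in 9 lists of the ubiquitin system (grey), with a black bar at each median. Gh_D09G1418 (UBQ11) lies at 3.11, the other 18 UBQ genes between -0.34 and 0.92, and the list medians between -0.098 and 0.042.

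Over the 8 libraries, the 5 tested genes whose log2(FPKM + 1) followed that of Gh_D09G1418 (UBQ11) most closely were named by their Pearson r, a measure that here reflects chiefly the gap between the groups. They were Gh_A11G1434 (CPX1, coproporphyrinogen oxidase), Gh_D06G2309 (NACK2, named after a kinesin of the tobacco cell plate), Gh_D09G1844 (SAP7, a zinc finger protein), Gh_D04G0002, without a symbol, and Gh_A01G0110 (TFT6, a 14-3-3 protein), with likeness values from 0.993 to 0.975. Gh_A11G1434 (CPX1) had 32.8, 36.4, 27.2, 29.97 and 28.2 FPKM in RNAi, and 11.1, 9.87 and 9.85 FPKM in WT. It shared with Gh_D09G1418 (UBQ11) the highest RNAi library, replicate 3, the lowest, replicate 4, and the highest WT library, replicate 1. Gh_D04G0002 had 8.22, 5.37, 2.69, 6.52 and 3.98 FPKM in RNAi and was listed at 0 in all 3 WT libraries. Gh_A01G0110 (TFT6) was nearly level within RNAi, at 147, 157, 164, 157 and 164 FPKM, and had 2.19, 2.43 and 1.59 FPKM in WT.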

How the data were processed

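RNA-seq of cotton fibre at 9 DPA was available as 1 deposited table with the authors' FPKM of each gene in each library. Per the submitters' processing notes, which state no role for them, the tools included FastQC, HISAT2 and DESeq 1.10.1. Build, annotation, read counter and the handling of reads that fit several genes were not given in the sources used here. Columns were matched to samples by group and replicate number, and 8 of 9 samples were used.

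The 34051 genes that reached 1 FPKM in 3 or more libraries were fitted on log2(FPKM + 1), a scale that understates the change of low genes, with limma 3.58.1 in R 4.3.3 (eBayes with a mean trend; two-sided p, adjusted over all tested genes by Benjamini-Hochberg, threshold 0.05). The fit was tested on simulated data. Single ratios used exact permutation over libraries (scipy 1.17.1). Coefficients of variation were computed on FPKM.

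The members and lists were chosen with earlier results of these data known. Pathway lists were symbol patterns, from which symbols that name other proteins, such as poly(A)-binding PAB genes, were removed once the symbols had been seen. Named from each list were the 2 genes of highest mean FPKM and the 2 of smallest p. Some genes that this rule names are not reported here. Alternatives were other scalings, pseudocounts (0.1, 0.01), filters, a replicate block, array weights, no trend and each library left out.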

Additional observations from a re-analysis of the deposited data

How the results depend on the processing

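Gh_D09G1418 (UBQ11) kept a log2 fold change between 2.99 and 3.51 over 18 alternatives, and 1 UBQ gene was called in each of them. That gene was chosen by this contrast in these same libraries, so nothing is read from its calls in any of these fits. The number of genes called over the whole table was 57, and it was 35 with a pseudocount of 0.01, 36 with a filter at 5 FPKM, 88 with array weights and 33 (without WT replicate 2 or WT replicate 3) to 58 with single libraries left out, with 34 without RNAi replicate 5 and 37 without RNAi replicate 2. Replicate numbers 2 and 3 are shared by both groups, but nothing in the labels ties same-numbered libraries, and their deviations from the group means correlated at 0.350 and -0.093. A fit with the replicate block rests on those 4 libraries only and called 311 genes, 38 of them among the 57, with Gh_D09G1418 (UBQ11) alone among the UBQ genes. There the log2 fold change was 1.12 for Gh_A09G1413 (UBQ11), 1.47 for Gh_D04G1099 (UBQ4) and 1.32 for Gh_A04G0636 (UBQ10), with adjusted p from 0.0539 to 0.0617, against 0.427 to 0.999 over their other alternatives. In the ubiquitin lists, 0 members were called by limma, 2 with the replicate block (ATL54 and UBI3 genes), 1 with array weights (UBC2, Gh_A08G2339) and 0 to 1 with single libraries left out (PUB38, Gh_A08G1882, without WT replicate 2). Lists with every symbol of the listed letters, added after seeing the data, gave 0 among 843 tested genes. The ratio of the UBQ sums was 0.97 to 1.06 with single libraries left out, highest without WT replicate 1. Log2 fold changes near 0 changed sign: Gh_A04G0182 (UBQ10, -0.0072) was 0.016 by median ratio, 0.010 by upper quartile, 0.016 by quantile normalization and 0.12 with array weights. With the replicate block, Gh_A06G1276 (UBQ11) was -0.020 and Gh_D06G1600 (UBQ11) 0.060. With single libraries left out, log2 fold changes ranged from -0.11 to 0.34 for Gh_A01G0575 (UBQ10), -0.085 to 0.25 for Gh_A04G0181 (UBQ3), -0.17 to 0.11 for Gh_A04G0182 (UBQ10), -0.031 to 0.079 for Gh_A06G1276 (UBQ11), -0.12 to 0.22 for Gh_D01G0586 (UBQ10) and -0.0046 to 0.15 for Gh_D10G0150 (UBQ11). The cause was not tested. Read numbers are unknown, so what depth limits in the low members could not be stated as counts.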

Other observations

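Among the neighbours shared by the chromosome 9 UBQ11 genes, the A copy of IRX9, named after an Arabidopsis gene of xylan synthesis in secondary walls, varied strongly between libraries. It was picked out after its values had been seen. Gh_A09G1418 (IRX9) had 63.6, 42.8, 2.51, 64.5 and 5.46 FPKM in RNAi replicates 2 to 6, and 22.5, 17.1 and 3.74 FPKM in WT replicates 1 to 3, a 25.7-fold range that crosses both groups. Its D copy Gh_D09G1426 (IRX9) had 92.9, 84.4, 54.1, 96.0 and 61.4 FPKM in RNAi, and 67.0, 68.7 and 67.3 FPKM in WT, a 1.77-fold range. RNAi replicates 5, 2 and 3 were the highest RNAi libraries in both copies and also in Gh_A09G1413 (UBQ11), which lies 5 identifier numbers from the A copy. They were also the deepest RNAi libraries (relative depth 2.19, 1.26 and 1.83). In WT, the shallowest library, replicate 1, was highest for Gh_A09G1418 (IRX9) and Gh_A09G1413 (UBQ11), and the deepest, replicate 2, for the D copy of IRX9. The part of depth was not tested.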
